A study of Mus musculus with 40 samples.

Results

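The mitochondrial genome of the mouse encodes 13 mRNAs, 22 tRNAs and 2 rRNAs, and 9 of these 37 genes are described here: the rRNAs mt-Rnr1 and mt-Rnr2, the complex I subunit mRNAs mt-Nd1, mt-Nd2, mt-Nd4, mt-Nd5 and mt-Nd6, the complex III subunit mRNA mt-Cytb and the complex IV subunit mRNA mt-Co1. They were selected on their count totals, as the mitochondrial genes with many counts among the 55487 genes of the table, so their high counts are a description and not a finding. The choice was also made with earlier results of these data known, the day 21 difference of the rRNAs among them. The tests of that difference below are therefore not independent of the choice. All 9 passed the filter on low counts. Livers of mice lacking the NAD-synthesizing enzyme NAMPT in hepatocytes (HNKO) were compared with those of wild-type (WT) littermates by RNA-Seq.

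HNKO mice carried floxed Nampt alleles and Cre recombinase driven by the albumin promoter (Nampt fl/fl, Alb-Cre+/-), and WT mice were floxed littermates without Cre. All were 9-week-old females on the C57BL/6JBomTac background at the start, and they ate a purified diet (PD) until livers were taken at day 3, 6, 12 or 21. The labels list these days as the age. The albumin promoter acts in hepatocytes, and the tissue was whole liver, so its other cells still carry the gene. Each library was made from 1 liver, and 38 of 40 libraries were used: 5, 4, 5 and 5 of WT and 5, 5, 6 and 3 of HNKO at days 3, 6, 12 and 21. The labels describe HNKO libraries 17 and 18 of day 21 as having failed quality control, and these were left out unless stated. Nampt mRNA was lower in HNKO at days 3, 6 and 12, with log2 fold changes of -0.93, -0.90 and -0.82 (edgeR, adjusted p = 0.0193, 0.0128 and 0.0208). At day 21 its log2 fold change was -0.69 and did not pass (adjusted p = 0.161), although all 3 HNKO libraries were below every WT library. Counts per library ranged from 16151037 to 64181492, with a median of 26466478.5, and none of the 6 hepatocyte markers was at 0 in any group.

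Mitochondrial DNA is transcribed on both strands as long precursors. The heavy-strand precursor holds both rRNAs and all the mRNAs except mt-Nd6, which comes from the light strand, and the tRNAs between them mark where the precursors are cut. The rRNAs form the core of the mitochondrial ribosome, which translates the mRNAs into subunits of the respiratory chain. In liver this chain reoxidizes NADH and drives ATP synthesis. The libraries were made from total RNA with Ribo-Zero Gold reagents, which are designed to remove mitochondrial as well as cytoplasmic rRNA, so the counts of mt-Rnr1 and mt-Rnr2 measured what was left after that step.

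The rRNA genes lie side by side, with mt-Rnr1 (12S rRNA of the small ribosomal subunit) at chrM:70-1024 and mt-Rnr2 (16S rRNA of the large subunit) at chrM:1094-2675 on the plus strand of GRCm38. Their 5′ starts are shown as the targets of the depletion step that carry the largest differences below. Capitals mark the bases covered by a single 51-base read from the 5′ end.
mt-Rnr1, chrM:70-189: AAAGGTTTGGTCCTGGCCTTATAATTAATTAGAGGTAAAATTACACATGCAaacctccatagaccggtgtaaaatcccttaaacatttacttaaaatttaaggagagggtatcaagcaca
mt-Rnr2, chrM:1094-1213: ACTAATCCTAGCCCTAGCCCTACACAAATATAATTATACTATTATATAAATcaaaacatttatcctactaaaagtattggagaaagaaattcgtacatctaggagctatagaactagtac

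mt-Nd6 is the light-strand mRNA, at chrM:13552-14070 on the minus strand, and its 3′ end overlaps that of mt-Nd5 on the plus strand by 14 bases. The 3′ ends of both genes are printed because the bases of the overlap belong to both genes, on opposite strands. A 51-base read is longer than the overlap, so it also covers bases outside it. The library kit marks the strand, but the strand setting of the counting is not given in the sources used here. Capitals mark the overlap, chrM:13552-13565, and each sequence is given in the sense of its own mRNA.
mt-Nd5, chrM:13506-13565: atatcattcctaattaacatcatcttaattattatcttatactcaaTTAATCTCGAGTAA
mt-Nd6, chrM:13552-13611: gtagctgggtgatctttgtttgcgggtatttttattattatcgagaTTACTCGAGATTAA

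The other 6 mRNAs of the mitochondrial genome were nearly absent from the count table. Counts did not exceed 7 in any used library for mt-Co2 and mt-Co3 (complex IV), mt-Atp8 and mt-Atp6 (ATP synthase) and mt-Nd4l (complex I). The complex I mRNA mt-Nd3 had a median count of 81.5. These 6 genes lie next to each other between mt-Co1 and mt-Nd4, and the GENCODE annotation holds near-identical nuclear pseudogenes of this part of the mitochondrial genome on chromosome 1, at chr1:24611535-24616197. Every 51-base stretch of mt-Co2 also occurred in annotated nuclear transcripts, and the shares of such stretches were 99.5% for mt-Atp6, 99.9% for mt-Co3, 98.0% for mt-Nd3 and 98.8% for mt-Nd4l. For mt-Atp8 no stretch was found in an annotated nuclear transcript. The pseudogenes themselves had low counts, with medians from 8.0 for Gm10222, the copy of mt-Nd4l, to 259.5 for Gm28437, the copy of mt-Co3. The treatment of reads that match several places is not given in the sources used here, and its part in the low counts was not tested.

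Of the 9 genes described, mt-Co1 and mt-Nd4 reach into the same region. Shared stretches made up 50.6% of mt-Co1 and 62.2% of mt-Nd4, against 8.0% of mt-Nd2, 7.22% of mt-Nd5, 0.979% of mt-Rnr2 and 0.0% of mt-Rnr1, mt-Nd1, mt-Nd6 and mt-Cytb. Counts of mt-Co1 and mt-Nd4 are therefore uncertain as levels, while mt-Cytb, mt-Nd1, mt-Nd6 and mt-Rnr1 held no such stretch. Only annotated transcripts were searched, and mt-Atp8 was nearly absent although it held no such stretch either. A share of 0.0% thus does not show that a gene lost no reads. The borders of the shared part are printed with a fully shared stretch of mt-Co2 between them and an unshared stretch of mt-Nd1 for comparison. Capitals mark bases within 51-base stretches that also occur in a nuclear transcript, and all 4 are on the plus strand of GRCm38.
mt-Co1, chrM:6334-6453: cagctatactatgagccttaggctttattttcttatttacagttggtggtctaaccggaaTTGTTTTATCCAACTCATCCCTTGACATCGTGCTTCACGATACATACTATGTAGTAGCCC
mt-Co2, chrM:7313-7412: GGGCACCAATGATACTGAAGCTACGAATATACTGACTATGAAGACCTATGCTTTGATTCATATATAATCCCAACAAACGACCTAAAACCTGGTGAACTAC
mt-Nd4, chrM:10983-11102: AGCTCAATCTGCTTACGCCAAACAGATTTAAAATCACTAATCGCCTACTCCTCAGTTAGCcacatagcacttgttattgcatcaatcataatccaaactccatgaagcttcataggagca
mt-Nd1, chrM:2751-2850: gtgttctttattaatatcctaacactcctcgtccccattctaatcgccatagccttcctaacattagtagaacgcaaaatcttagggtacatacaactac

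**Figure D1:**
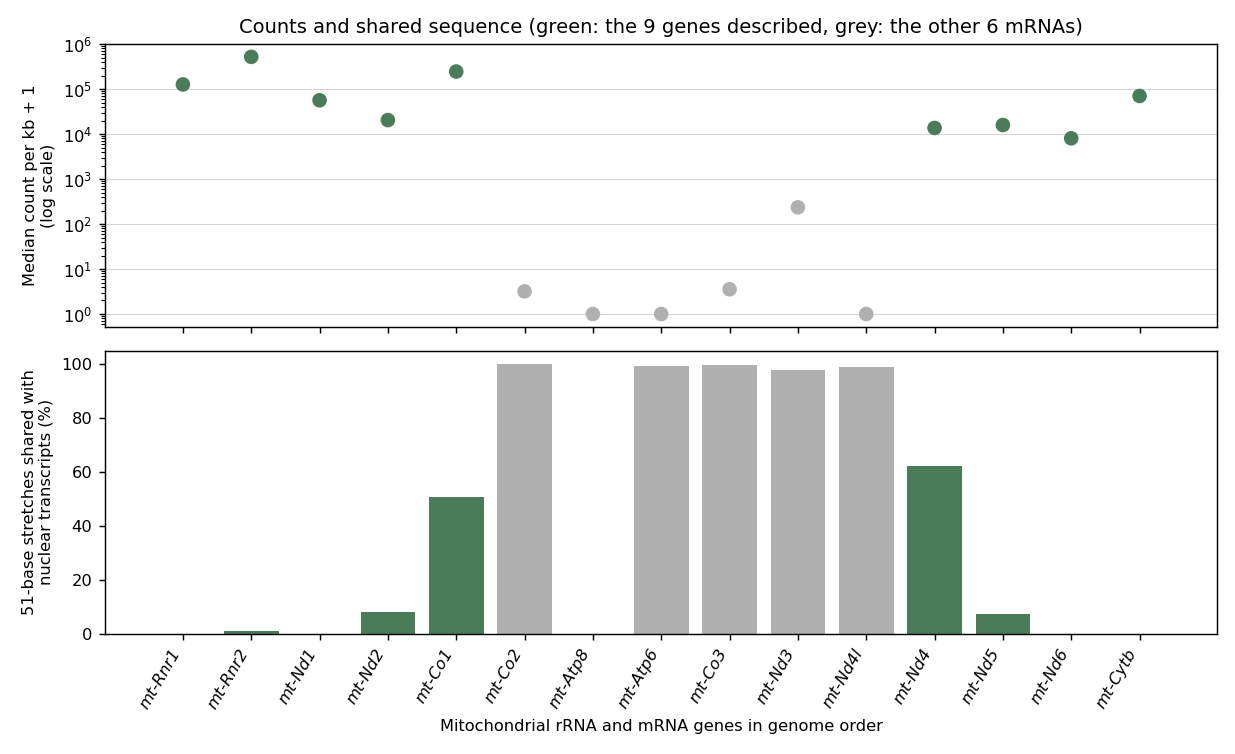
Median count per kilobase of gene length plus 1 over the 38 libraries (top, log scale) and share of 51-base stretches found in nuclear transcripts (bottom, %) for the 15 rRNA and mRNA genes in genome order. The 6 grey genes have median counts of 81.5 or less, and 5 of them share at least 98.0% of their stretches.

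Levels of single genes are given as log2 CPM, the base-2 logarithm of CPM, which is a gene's share of all counts, after scaling by TMM, edgeR's correction for RNA composition. Divided by gene length, mt-Rnr2 was the most abundant of the 9, at 14.09 ± 0.69 log2 CPM per kb (SD, n = 38), followed by mt-Co1 at 13.08 ± 0.41, mt-Rnr1 at 12.08 ± 0.73, mt-Cytb at 11.34 ± 0.62 and mt-Nd1 at 11.06 ± 0.56. The other complex I mRNAs were lower, at 9.58 ± 0.66 for mt-Nd2, 9.28 ± 0.72 for mt-Nd5, 9.03 ± 0.61 for mt-Nd4 and 8.41 ± 0.76 for mt-Nd6, the only light-strand mRNA. The values of mt-Co1 and mt-Nd4 use the full gene length, shared stretches included, so the places of these mRNAs in the order are uncertain. Neighbours in this order differed by more than the SD of their difference within libraries, except mt-Nd2 and mt-Nd5, whose difference was 0.31 ± 0.48. mt-Cytb was above mt-Nd1 in 37 of 38 libraries although both come from the same precursor. Together the 7 mRNAs took 1.19 to 3.35% of all counts in a library and the 2 rRNAs 0.949 to 5.27%.

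To ask whether transcripts of the mitochondrial genome differ without hepatocyte NAMPT, HNKO was compared with WT at each day. All 9 transcripts had lower means in HNKO at days 6, 12 and 21, with median log2 fold changes of -0.60, -0.74 and -0.91. In the main edgeR fit only the rRNAs and mt-Nd6 passed the test at any day, and DESeq2 also called mt-Cytb at day 12 (adjusted p = 0.0436). With the run of library numbers, described below, as a covariate, the medians of days 6, 12 and 21 were -0.58, -0.75 and -0.56. The lower median at day 21 thus did not hold in that fit. The covariate takes the runs to differ by the same amount on every day. Within the second run alone, the 7 mRNAs differed by -1.05 to -0.70 at day 21. Without libraries 35 to 40, set out below, the medians at days 6 and 12 were -0.60 and -0.51, and no HNKO liver of day 21 remained. At day 12, mt-Nd6 was 2.13-fold and mt-Rnr2 1.78-fold lower in HNKO, and neither passed without libraries 35 to 40, described below (adjusted p = 0.106 and 0.0507). At day 21, mt-Rnr1 was 4.63-fold and mt-Rnr2 3.81-fold lower, but this result rests on libraries in which mitochondrial rRNA was low in a WT liver too, as set out below. At day 3 no transcript passed, with log2 fold changes between -0.32 and 0.07. In bulk liver, fewer hepatocytes and less mitochondrial RNA per hepatocyte cannot be told apart.

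By edgeR's quasi-likelihood test with Benjamini-Hochberg adjustment over the 20297 genes tested, 0 of 9 transcripts passed at day 3, where 1.71% of all genes were lower in HNKO. None had an unadjusted p under 0.05, and DESeq2 called 0 as well. At day 6, 0 passed, against 4.37% of all genes lower, with 5 under 0.05 before adjustment and 0 by DESeq2. At day 12, 2 of 9 passed and 3.27% of all genes were lower. At day 21, 2 of 9 passed and 0.916% of all genes were lower. Every HNKO library lay below every WT library for 0, 2, 2 and 8 of the 9 transcripts on the successive days. The same was true of 1.8, 4.68, 2.14 and 6.69% of all genes. The median log2 fold change of all genes was between -0.014 and 0.013 on each day, so the lower values are relative to the other genes.

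**Figure D2:**
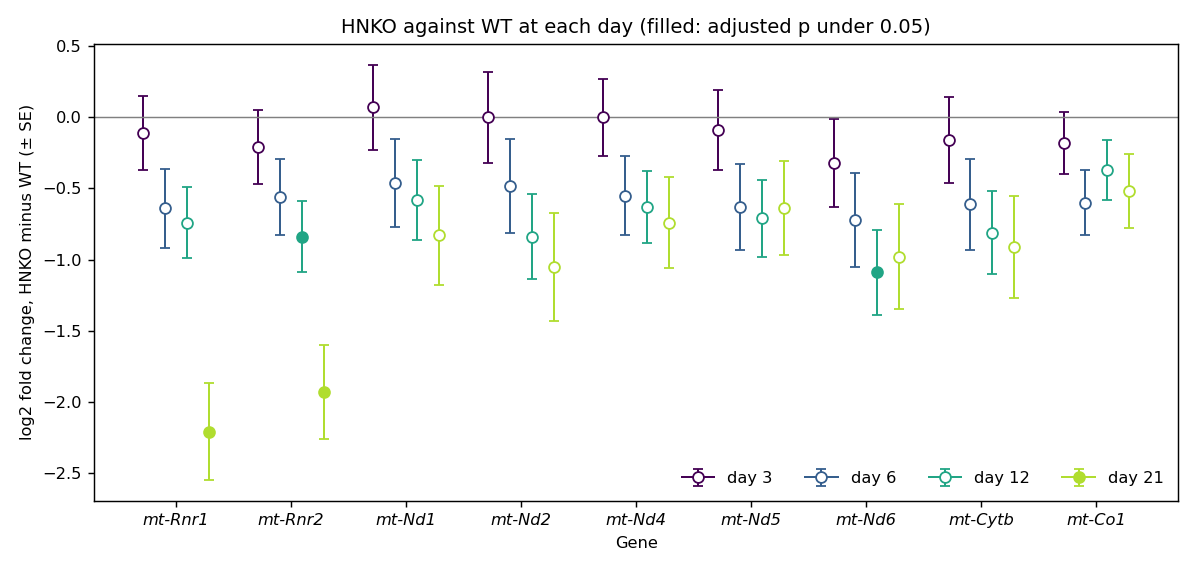
Log2 fold change of HNKO minus WT (y axis, points with SE) for each gene (x axis) at days 3, 6, 12 and 21. Filled points passed the test, namely mt-Nd6 and mt-Rnr2 at day 12 and mt-Rnr1 and mt-Rnr2 at day 21, and all points of days 6, 12 and 21 lie below 0.

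mt-Rnr1 started at similar levels in both genotypes. At day 3 it was 11.91, 11.73, 11.99, 12.34 and 11.98 log2 CPM in WT and 11.77, 11.66, 11.70, 12.47 and 11.67 in HNKO, and the groups overlapped. At day 6 it was 12.71, 12.29, 12.67 and 12.46 in WT and 12.08, 12.19, 11.47, 11.67 and 11.98 in HNKO, with every HNKO library below every WT library. With an SE of 0.28, the fitted difference of -0.64 log2 units did not pass (adjusted p = 0.128). At day 12 WT livers were at 12.85, 12.68, 12.50, 12.69 and 12.75, and HNKO livers ranged from 10.26 to 12.32 with a median of 12.21, again without overlap. The fitted difference of -0.74 ± 0.25 (SE) did not pass in edgeR either (adjusted p = 0.0622), while DESeq2 called mt-Rnr1 on that day.

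At day 21 mt-Rnr1 was 12.95, 12.70, 12.62, 11.32 and 12.92 in WT and 10.20, 10.75 and 10.14 in HNKO. The groups did not overlap, and the WT value of 11.32 stood below the other 4. The fitted difference was -2.21 ± 0.34 log2 units (SE), with an adjusted p of 0.000493 in edgeR.

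mt-Rnr2 moved with mt-Rnr1. At day 12 it was 15.42, 15.45, 15.47, 15.47 and 15.38 in WT, an SD of 0.04, and between 12.96 and 14.98 in HNKO with a median of 14.89. Of the 6 HNKO livers, 4 were within 14.85 to 14.98 and the other 2 were at 14.05 and 12.96. The difference of -0.84 ± 0.25 log2 units (SE) passed (adjusted p = 0.0342). At day 21 it was 15.46, 15.35, 15.24, 13.93 and 15.51 in WT and 12.96, 13.58 and 13.19 in HNKO. No HNKO library reached the lowest WT library, and the difference of -1.93 ± 0.33 log2 units (SE) passed as well (adjusted p = 0.00144). The day 12 difference no longer passed without any 1 of WT libraries 15, 16, 33 and 34 or HNKO libraries 35 and 36 (adjusted p = 0.0518 to 0.0830), and without HNKO library 37 the day 21 difference was -1.78 (adjusted p = 0.0621). The log2 ratio of mt-Rnr2 to mt-Rnr1 counts stayed within 2.51 to 3.05 over the 38 libraries, while mt-Rnr1 alone ran from 10.14 to 12.95 log2 CPM and mt-Rnr2 from 12.96 to 15.51, so libraries low in one were low in the other.

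Those libraries carry consecutive numbers in the sample labels. Libraries 35 and 36 (HNKO, day 12), 37, 38 and 40 (HNKO, day 21) and 39 (WT, day 21) had mt-Rnr1 at 11.52, 10.26, 10.20, 10.75, 10.14 and 11.32 log2 CPM. In the other 32 used libraries it was between 11.47 and 12.95, including WT library 41 of day 21 at 12.92. The pattern thus crossed genotype and day, and all 3 HNKO libraries used at day 21 fell within these numbers. mt-Rnr1 and mt-Rnr2 together were 0.949 to 2.14% of all counts in libraries 35 to 40 and 2.5 to 5.27% elsewhere. The 7 mRNAs were 1.46 to 1.93% in libraries 35 to 40, inside their range of 1.19 to 3.35% elsewhere. In the WT liver of library 39, mt-Rnr1 was still above the 3 HNKO livers of the same day.

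The long noncoding RNA Gm26917, named after its values were seen, was high in most of the same libraries. It lies on chromosome 17 with 11 bases between its end and an annotated rRNA gene, and it was 12.83, 12.75, 12.89, 12.76, 13.45 and 12.05 log2 CPM in libraries 35 to 40, against 10.54 to 12.37 in the other 32. Libraries 35 to 39 were thus above all others, while library 40 lay within their range, below WT libraries 19 and 41. What the library numbers stand for is not given in the labels. The part that what sets libraries 35 to 40 apart has in the mt-Rnr1 and mt-Rnr2 results was not tested, and at day 21 no HNKO library outside these numbers passed quality control. Only WT library 39 gives a comparison within these numbers on that day, and 1 WT liver allows no test.

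**Figure D3:**
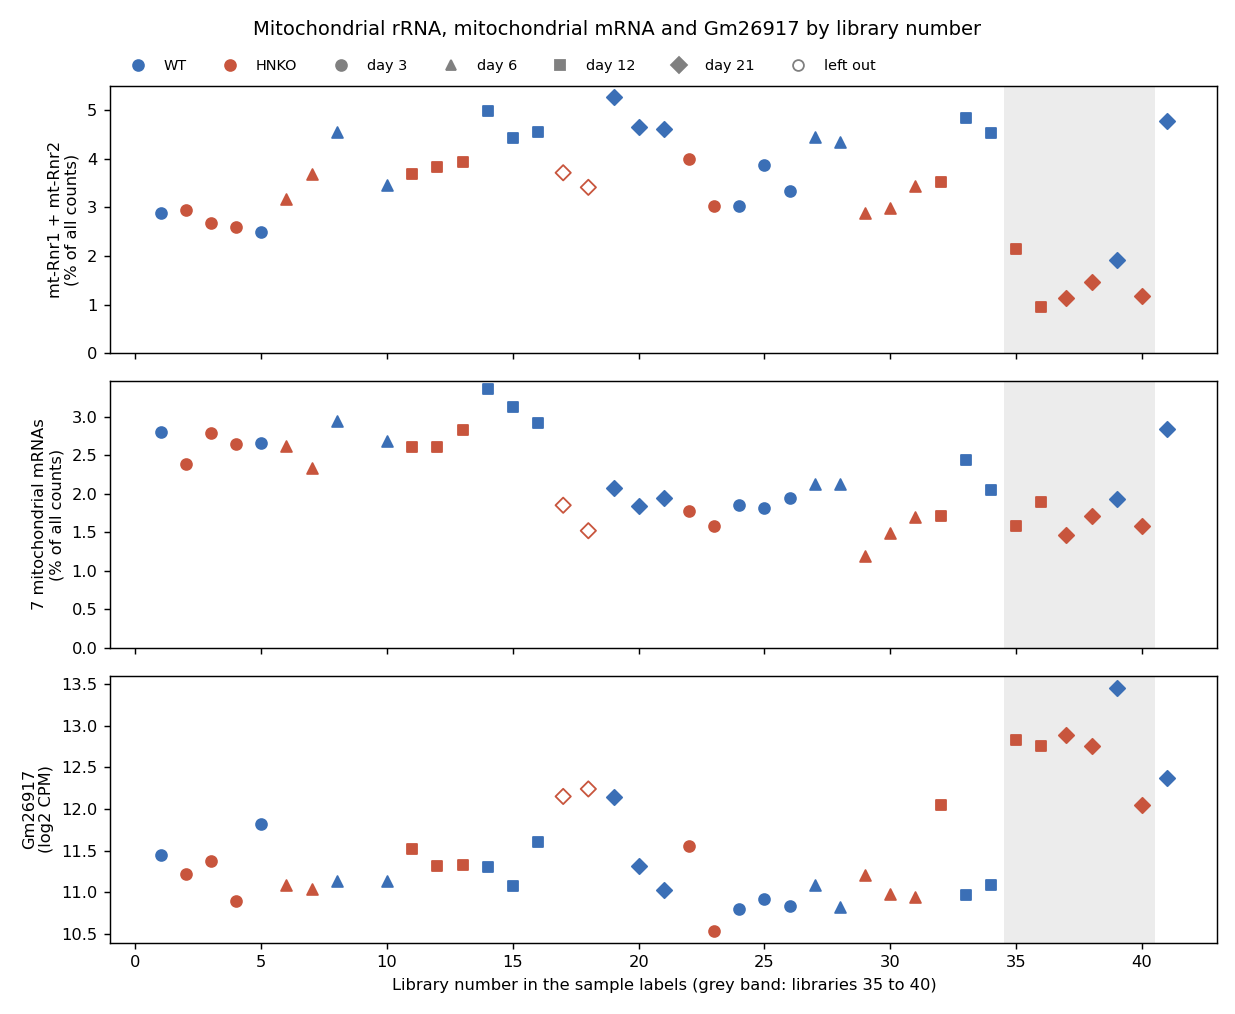
Share of all counts taken by mt-Rnr1 and mt-Rnr2 (top, %) and by the 7 mRNAs (middle, %), and log2 CPM of Gm26917 (bottom), by the library number in the labels. Colours are genotypes, shapes are days, open symbols are the 2 libraries left out, and in the grey band (libraries 35 to 40) the rRNA share is at most 2.14% in HNKO and WT alike.

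The rRNA results were therefore also computed without these libraries and, separately, with the libraries left out for quality. Without libraries 35 to 40, a choice made after seeing the data, no HNKO liver of day 21 remains. At day 12 the log2 fold change of mt-Rnr1 was then -0.43 (adjusted p = 0.110) and that of mt-Rnr2 -0.51 (adjusted p = 0.0507), so neither passed. At day 6, where no library of these numbers enters the groups, mt-Rnr1 (log2 fold change -0.65, adjusted p = 0.00918) and mt-Rnr2 (-0.57, adjusted p = 0.0180) passed in that fit, which called 13.7% of all genes in either direction. With all 40 libraries, the day 21 log2 fold changes were -1.03 for mt-Rnr1 (adjusted p = 0.0689) and -1.17 for mt-Rnr2 (adjusted p = 0.0190). The left-out HNKO libraries 17 and 18 had mt-Rnr1 at 12.70 and 12.18 and mt-Rnr2 at 14.80 and 14.62, scaled together with the other 38. All but the mt-Rnr1 value of library 17 lay below the 4 WT livers other than library 39, which were at 12.62 to 12.95 for mt-Rnr1 and 15.24 to 15.51 for mt-Rnr2.

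Library numbers pass through the days in order from 1 to 21 and again from 22 to 41, and both runs hold both genotypes. At day 12 the mean log2 CPM of mt-Rnr1 in HNKO minus WT was -0.37 within the first run (3 against 3 livers) and -1.42 within the second (3 against 2). For mt-Rnr2 these differences were -0.50 and -1.47. At day 6 they were -0.37 and -0.86 for mt-Rnr1, with 2 or 3 livers a group. At day 21 the second run gave -1.75 for mt-Rnr1 (3 against 2), and in the first run the 2 left-out HNKO libraries gave -0.32 against the 3 WT libraries, and -0.64 for mt-Rnr2. The HNKO means of the second run include libraries 35 and 36 at day 12 and consist of libraries 37, 38 and 40 at day 21. The only other HNKO library of that run at day 12, library 32, had mt-Rnr1 at 12.14 against a WT mean of 12.72. At day 3 the differences for mt-Rnr1 were -0.11 in the first run and -0.03 in the second.

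mt-Nd6 encodes a membrane subunit of complex I. Other fits, given below, called further mRNAs, but in the main edgeR fit mt-Nd6 was the only mRNA of the 9 to pass. At day 12 it was 8.88, 8.98, 9.28, 8.30 and 8.08 log2 CPM in WT and 7.89, 7.98, 8.36, 7.15, 7.12 and 7.04 in HNKO. All but 1 HNKO library were below every WT library, and the difference of -1.09 ± 0.30 log2 units (SE) passed (adjusted p = 0.0217). Within the first and second run of library numbers the differences were -0.97 and -1.09. Without WT library 15 or 16 or HNKO library 35 the adjusted p was 0.0550, 0.0650 or 0.0530, so the call depends on single livers. Without libraries 35 to 40 its value was -0.86 (adjusted p = 0.106). At days 3, 6 and 21 the log2 fold changes were -0.32, -0.72 and -0.98, and none passed (adjusted p = 0.600, 0.148 and 0.138). With 1 library left out they ran from -0.49 to -0.08, from -0.88 to -0.33 and from -1.11 to -0.79.

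mt-Nd1, mt-Nd2, mt-Nd4 and mt-Nd5 encode the other membrane subunits of complex I described here. Their log2 fold changes were between -0.63 and -0.46 at day 6, between -0.84 and -0.58 at day 12 and between -1.05 and -0.64 at day 21. None passed the test of the main fit at any day. With 1 library left out, the day 6 values ran from -0.69 to -0.19 for mt-Nd2 and from -0.82 to -0.44 for mt-Nd5. For mt-Nd1 they ran from -0.71 to -0.27 and for mt-Nd4 from -0.79 to -0.36. Without libraries 35 to 40 the day 12 values were between -0.63 and -0.33, and all day 21 values in HNKO come from those libraries. mt-Nd2 had the lowest of these values, -1.05 at day 21 (SE 0.38, adjusted p = 0.121). It was 9.70, 9.35, 9.97, 9.14 and 10.43 log2 CPM in WT and 8.51, 9.01 and 8.67 in HNKO, without overlap. mt-Nd5 at day 21 was 10.48, 10.09, 10.29, 10.49 and 11.37 in WT and 9.79, 10.32 and 9.76 in HNKO, and it was the only one of the 9 transcripts whose groups overlapped on that day.

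mt-Cytb encodes cytochrome b, the mitochondrially made subunit of complex III. Its log2 fold changes at days 3, 6, 12 and 21 were -0.16, -0.61, -0.81 and -0.91 with SEs of 0.29 to 0.36 and adjusted p = 0.807, 0.220, 0.0709 and 0.155 in edgeR. DESeq2 called mt-Cytb at day 12 (adjusted p = 0.0436). Without libraries 35 to 40 mt-Cytb was at -0.56 at day 12 (edgeR, adjusted p = 0.279), and its day 21 value in HNKO rests on those libraries. At day 21 it was 11.46, 11.28, 11.46, 11.03 and 12.07 log2 CPM in WT and 10.25, 10.84 and 10.62 in HNKO, without overlap. mt-Co1 encodes the catalytic subunit of complex IV and showed the smallest differences at days 12 and 21, with log2 fold changes of -0.37 and -0.52. Without libraries 35 to 40 its day 12 value was -0.27 (edgeR, adjusted p = 0.542). At day 6 its log2 fold change was -0.60 (adjusted p = 0.0882), and it passed with the run of library numbers described above as a covariate (-0.58, adjusted p = 0.0315) or without HNKO library 6 (-0.79, adjusted p = 0.0214).

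For the 7 mRNAs, SDs within groups ran from 0.22 to 0.74 log2 units. Together they took 2.33 to 3.35% of counts in libraries 1 to 16, at most 2.44% in libraries 19 to 40 and 2.84% in library 41. Within the 2 runs of library numbers, HNKO means at day 3 were below WT means for 7 of 7 mRNAs in the first (-0.55 to -0.01). In the second they were below for 6 of 7 (-0.44 to 0.06). At day 6 they were below for 7 of 7 in both, with differences of -0.09 to -0.54 in the first and -0.69 to -0.84 in the second. At day 12 the differences were -0.29 to -0.97 in the first run and -0.39 to -1.10 in the second, again for 7 of 7. At day 21 they were -0.70 to -1.05 in the second run, and -0.24 to -0.72 in the first run with the left-out libraries 17 and 18. With the run as a covariate, 4 transcripts passed at day 12, namely mt-Nd6, mt-Rnr2, mt-Cytb (adjusted p = 0.0122) and mt-Nd2 (adjusted p = 0.0165). That fit called 9.85% of all genes in either direction, against 7.82% without the covariate. It does not set libraries 35 to 40 apart from the rest of the second run. Without those libraries, mt-Cytb was at -0.56 and mt-Nd2 at -0.53 at day 12, and neither passed (edgeR, adjusted p = 0.279 and 0.310). At day 21, where all 3 HNKO and 2 of 5 WT libraries are of the second run, the covariate moved the differences of the 7 mRNAs from between -1.05 and -0.52 to between -0.69 and -0.30, and none passed. The covariate takes the runs to differ by the same amount on every day. Within the first run, however, the mRNA share was 1.84 to 2.07% in libraries 19 to 21, against 2.33 to 3.35% in libraries 1 to 16.

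**Figure D4:**
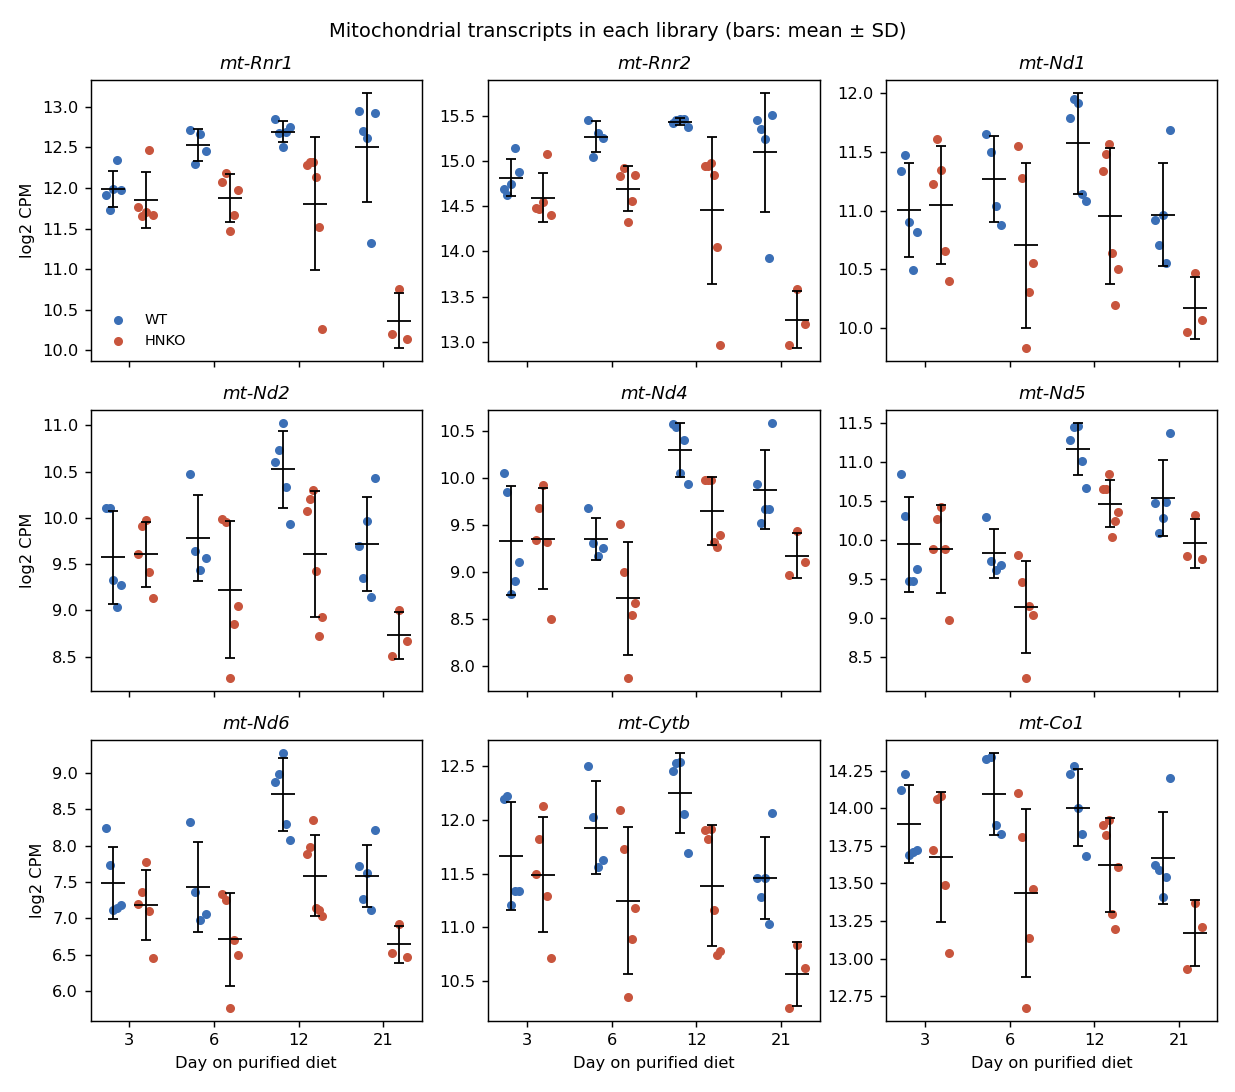
Log2 CPM (y axis) of each gene in every library used, by day on the purified diet (x axis) and genotype, with the mean ± SD. At day 21 the HNKO points lie below all WT points for each gene but mt-Nd5, and the single low WT point of mt-Rnr1 (11.32) and mt-Rnr2 (13.93) is library 39.

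Whether the genotype difference itself changed over the days was tested as an interaction of genotype and day. 0 of 9 transcripts passed, as did 0.0% of all genes, with 2 of the 9 and 966 of all genes under 0.05 before adjustment in edgeR. The 2 transcripts were the rRNAs. From day 3 to day 21 the difference of HNKO minus WT shifted by -2.10 log2 units for mt-Rnr1 (edgeR, adjusted p = 0.299). For mt-Rnr2 it shifted by -1.72 (edgeR, adjusted p = 0.601), and both shifts rest on libraries 37, 38 and 40. For mt-Nd1, mt-Nd2 and mt-Cytb the changes from day 3 to day 21 were -0.90, -1.05 and -0.75, with an adjusted p of 1.0 each. A growing difference over the days is therefore not shown by this test.

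Over the days within WT livers, mt-Nd5 and mt-Nd6 changed (edgeR, adjusted p = 0.00732 and 0.0114), 2 of 9 transcripts against 5.84% of all genes. Compared with day 3, mt-Nd5 was at -0.20, 1.15 and 0.56 log2 units at days 6, 12 and 21, and mt-Nd6 at -0.02, 1.21 and 0.08. mt-Nd4 followed with 0.89 at day 12 and did not pass (adjusted p = 0.0547). In HNKO livers mt-Nd5, mt-Rnr1 and mt-Rnr2 changed (adjusted p = 0.0195, 0.00755 and 0.0140), 3 of 9 against 7.9% of all genes. mt-Nd5 was at -0.74, 0.53 and 0.02 log2 units from day 3, so it was lowest at day 6 and highest at day 12 in both genotypes. mt-Rnr1 was at 0.01, 0.07 and -1.50 and mt-Rnr2 at 0.09, -0.02 and -1.35, with the change at day 21 only, in libraries 37, 38 and 40. With libraries 35 to 40 left out, mt-Nd5 passed in both genotypes (adjusted p = 0.0184 in WT and 0.0285 in HNKO), the HNKO test then covering days 3, 6 and 12. mt-Nd6 passed in WT as before (adjusted p = 0.0212). The rRNAs then passed in WT (adjusted p = 0.00989 for mt-Rnr1 and 0.0476 for mt-Rnr2) and not in HNKO (adjusted p = 0.281 and 0.495), the reverse of the fit with all 38 libraries. These fits called 4.3% of all genes in WT and 3.7% in HNKO.

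Ratios between transcripts of 1 library do not depend on scaling. The log2 ratio of mt-Nd5 to mt-Nd1, both complex I mRNAs of the heavy-strand precursor with mt-Nd1 nearer its start, was -1.06 ± 0.35 (SD, n = 5) in WT at day 3, -1.43 ± 0.24 (n = 4) at day 6, -0.40 ± 0.15 (n = 5) at day 12 and -0.42 ± 0.24 (n = 5) at day 21. In HNKO it was -1.16 ± 0.29 (n = 5), -1.57 ± 0.26 (n = 5), -0.49 ± 0.35 (n = 6) and -0.21 ± 0.09 (n = 3). Day 6 was thus the lowest and days 12 and 21 the highest in both genotypes, and the day 6 and day 12 libraries did not overlap in either. mt-Cytb, the last mRNA of the same precursor, did not show this order. Its log2 ratio to mt-Nd1 had means of 0.66, 0.66, 0.68 and 0.49 in WT and 0.44, 0.54, 0.44 and 0.40 in HNKO at days 3, 6, 12 and 21, with SDs of 0.07 to 0.25. The ratio of mt-Nd6 to mt-Nd5, a light-strand over a heavy-strand mRNA, was -2.47 ± 0.19 (n = 5) in WT and -2.87 ± 0.30 (n = 6) in HNKO at day 12, and the groups overlapped. At day 21 it was -2.96 ± 0.30 (n = 5) in WT and -3.31 ± 0.07 (n = 3) in HNKO, and the groups overlapped as well. In libraries 35 to 40 it was between -3.39 and -3.12, against -3.16 to -1.99 in the other 32, and the mt-Nd5 to mt-Nd1 ratio was between -0.31 and 0.04, against -1.82 to -0.13. These ratios are descriptions without a test.

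**Figure D5:**
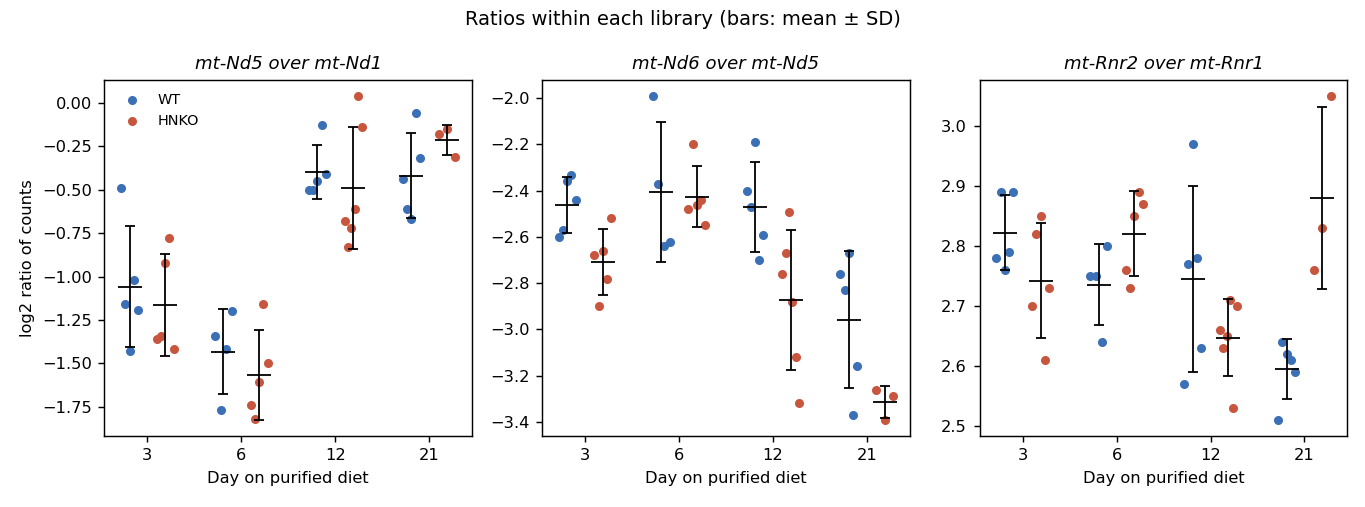
Log2 ratio of counts within each library (y axis) by day on the purified diet (x axis) and genotype, with mean ± SD, for mt-Nd5 over mt-Nd1, mt-Nd6 over mt-Nd5 and mt-Rnr2 over mt-Rnr1. The mt-Nd5 to mt-Nd1 ratio is lowest at day 6 in both genotypes, and the ratio of the rRNAs stays between 2.51 and 3.05.

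Members of the same class varied together from liver to liver. After subtraction of group means in log2 CPM, Pearson's r over 38 libraries was 0.83 to 0.95 for the 21 pairs of mRNAs, 0.98 for the rRNA pair and 0.19 to 0.51 for the 14 pairs of an mRNA and an rRNA. The nuclear genes most like the mean of the 7 mRNAs in this measure were Cwc15, a splicing factor, S100a1, a calcium-binding protein, Fxyd1, a regulator of the sodium pump, and Smarcc2, a chromatin remodelling subunit, each at r = 0.90, and Reep6 at 0.89. Those most like the mean of mt-Rnr1 and mt-Rnr2 were Rps16, a cytoplasmic ribosomal protein, at r = 0.89, Alg5, a glycosylation enzyme, at 0.82, and Ppp1r7, Trappc6b and Thrap3 at 0.71. All points share their library, its depth and its number in the labels, so these are descriptions.

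Of the other 28 mitochondrial genes, 17 passed the filter, namely mt-Nd3 and 16 tRNAs. Their log2 fold changes in HNKO were below 0 for 14, 15, 17 and 17 of them at days 3, 6, 12 and 21, with medians of -0.29, -0.36, -0.63 and -0.50. At day 12, 3 of the 17 passed, beside 3.27% of all genes lower in HNKO. They were mt-Nd3 (-0.63, adjusted p = 0.0392), the glycine tRNA mt-Tg (-0.96, adjusted p = 0.0103) and the histidine tRNA mt-Th (-1.14, adjusted p = 0.0381). At days 3, 6 and 21, 0 passed in edgeR, with 0, 2 and 2 under 0.05 before adjustment, and DESeq2 called 0 on each of these days. Nearly all of mt-Nd3 is shared with a nuclear pseudogene, so its value is uncertain.

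Nuclear genes that act on the mitochondrial genome were compared as lists, beside 1.71, 4.37, 3.27 and 0.916% of all genes lower and 2.95, 8.42, 4.56 and 2.21% higher in HNKO at days 3, 6, 12 and 21. All HNKO libraries used at day 21, and libraries 35 and 36 of day 12, are among libraries 35 to 40. The lists here and below were not compared without these libraries, so their calls at days 12 and 21 carry the same limit. Of 10 genes of mitochondrial transcription, 1, 0, 2 and 1 were lower in HNKO at days 3, 6, 12 and 21 and none was higher. Tfam, the factor that packages mitochondrial DNA and starts its transcription, was lower at days 3 and 12 (log2 fold changes -0.37 and -0.41, adjusted p = 0.0476 and 0.0163). Mrpl12, a ribosomal protein that also binds the mitochondrial RNA polymerase, was lower at days 12 and 21 (-0.64 and -0.99, adjusted p = 0.0293 and 0.0171). Of 14 genes of mitochondrial DNA maintenance, 0, 4, 1 and 1 were lower, with Twnk, the replicative helicase, at -0.33 at day 6 and -0.47 at day 21 (adjusted p = 0.00917 and 0.00472), Atad3a at -0.44 at day 6 and Ssbp1, the single-strand binding protein, at -0.42 at day 12. The median log2 fold changes of the transcription list were -0.11, -0.24, -0.24 and -0.21.

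Of 19 measured genes of mitochondrial RNA processing and stability, 0, 4, 1 and 0 were lower. They included Ptcd3, a protein of the small mitochondrial ribosomal subunit (-0.29, adjusted p = 0.00782), and Hsd17b10, a subunit of mitochondrial RNase P (-0.56, adjusted p = 0.0131), at day 6, and Trmt10c, another subunit of RNase P, at day 12 (-0.43, adjusted p = 0.00998). Of 20 genes of rRNA modification and ribosome assembly only Gtpbp10 passed, at day 6 (-0.33, adjusted p = 0.0371). Of 77 tested mitochondrial ribosomal proteins 0, 8, 2 and 1 were lower, with medians of -0.08, -0.21, -0.13 and -0.07. Mrps27 and Mrps9 were at -0.45 and -0.35 at day 6, and Mrpl15 was at -0.44 at day 12.

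The nuclear subunits of the complexes that the 7 mRNAs contribute to had median log2 fold changes below 0 on each day. Of 36 tested nuclear complex I subunits, 4, 18, 8 and 0 were lower at days 3, 6, 12 and 21, with medians of -0.31, -0.39, -0.23 and -0.17. Ndufb9 was at -0.58 (SE 0.14, adjusted p = 0.00462) at day 6, against -0.63 (SE 0.30, adjusted p = 0.163) for mt-Nd5. Ndufa10 was at -0.44 at day 6, Ndufs3 was at -0.39 at day 3, and Ndufa5 and Ndufs7 were at -0.63 and -0.38 at day 12. Of 9 nuclear complex III subunits 0, 5, 1 and 0 were lower, with Uqcrc1 at -0.43 and Uqcrc2 at -0.47 at day 6 and Uqcrb at -0.44 at day 12. Of 11 nuclear complex IV subunits 1, 6, 1 and 0 were lower, with Cox5a at -0.40 at day 3, Cox6c at -0.45 and Cox5b at -0.40 at day 6, and Cox6c at -0.39 at day 12. The complex III medians were -0.33, -0.43, -0.19 and -0.16 and the complex IV medians -0.34, -0.40, -0.16 and -0.13. No gene of these 3 lists was higher. At day 21, 0 of the 56 nuclear subunits passed in edgeR, with 8 under 0.05 before adjustment and 0 called by DESeq2.

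Among 7 regulators of mitochondrial biogenesis, Ppara was lower at day 3 (-0.64, adjusted p = 0.0374), Ppargc1a, the coactivator PGC-1alpha, at day 6 (-0.61, adjusted p = 0.0296), and Gabpa, a transcription factor of respiratory chain genes, at days 12 and 21 (-0.39 and -0.36, adjusted p = 0.00549 and 0.0434). Pprc1, a relative of PGC-1alpha, was higher at day 6 (0.64, adjusted p = 0.0329). Of 11 genes for abundant mitochondrial proteins, 1, 3, 2 and 0 were lower. Vdac1, the outer membrane channel, was lower at days 3 and 6 (-0.34 and -0.36), Phb, an inner membrane scaffold, at day 6 (-0.31), and Hspd1, the matrix chaperone, and Lonp1, the matrix protease, at day 12 (-0.47 and -0.29).

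Markers of cholangiocytes and of stellate cells and fibroblasts were called higher in HNKO on each day. Of 5 cholangiocyte markers, 4, 4, 3 and 2 were higher in HNKO at days 3, 6, 12 and 21, against 2.95, 8.42, 4.56 and 2.21% of all genes. Of 6 stellate cell and fibroblast markers 2, 3, 2 and 3 were higher, and of 6 macrophage and leukocyte markers 0, 3, 1 and 0. Of 6 hepatocyte markers 0, 2, 0 and 0 were lower, and of 4 endothelial markers 0, 1, 1 and 0, against 1.71, 4.37, 3.27 and 0.916% of all genes. The summed level of the cholangiocyte markers was at most 48.6 CPM in WT livers and reached 751 CPM in HNKO livers, without overlap, that of 6 stellate cell and fibroblast markers was 266 to 419 CPM in WT and 258 to 1240.0 CPM in HNKO, and that of 6 macrophage and leukocyte markers was at most 476 and 658 CPM. The 6 hepatocyte markers summed to 82400 to 139000 CPM in WT and 54100 to 116000 CPM in HNKO. The 4 endothelial markers were at 410.0 to 513 and 395 to 497 CPM, and the 5 erythroid markers at 31.1 to 310.0 and 56.2 to 684 CPM. No marker was at 0 in a group. Among 10 tested nuclear-retained and small structured RNAs, Kcnq1ot1 was higher at day 3 (0.54, adjusted p = 0.00226) and Neat1 lower at day 21 (-0.87, adjusted p = 0.0331). The part of cell composition in the lower mitochondrial transcripts was not tested.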

How the data were processed

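Whole-liver RNA was depleted of rRNA and sequenced as 51-base paired-end reads. The authors aligned these to GRCm38 with STAR 2.7.2b and counted fragments with both ends aligned per GENCODE gene with featureCounts 1.6.4. The deposited table holds raw counts per gene, without normalization, for 40 libraries, and replicates were not pooled. The strand setting and the handling of reads with several matches are not given in the sources used here. Groups were taken from the sample labels. Counts were filtered with filterByExpr (minimum count 10), scaled by TMM and fitted with edgeR 4.0.16 (R 4.3.3) under 1 mean per group of genotype and day, with an adjusted p threshold of 0.05 over 20297 genes. log2 CPM used a prior count of 2. The tests were checked on simulated counts. DESeq2 1.42.0, other scalings, filters, library sets and covariates were alternatives. Shared stretches and printed sequences came from GENCODE M21 transcripts. No protein table was used here. Genes named were the 9 members, Nampt, other mitochondrial genes, the called genes with the smallest p in each pathway list (at most 2 a direction and day) and the 5 most similar nuclear genes. One gene that this rule names is not reported here. Marker lists were given by counts and sums. The members and lists were chosen with earlier results of these data known, and the day 21 difference of the rRNAs was among those results.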

Additional observations from a re-analysis of the deposited data

Results flagged for a closer look

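In groups of 4 to 10 livers, single libraries far from the rest of their group were looked for in 84 sets of values, and 8 were found, where chance gives about 1 in 20 for separate sets. The sets are not separate, since transcripts of a library vary together and the shares are sums of their counts. No excess over chance can therefore be read from these numbers. WT library 39 of day 21 was low in mitochondrial rRNA, with mt-Rnr1 at 11.32 log2 CPM against 12.62 to 12.95 in the other 4, mt-Rnr2 at 13.93 against 15.24 to 15.51, and an rRNA share of 1.91% of counts against 4.62 to 5.27%. WT library 41 of day 21 was high in mitochondrial mRNA, with mt-Co1 at 14.20 log2 CPM against 13.41 to 13.62 and an mRNA share of 2.84% against 1.84 to 2.07%. HNKO library 22 of day 3 was high in rRNA, with mt-Rnr1 at 12.47 against 11.66 to 11.77 and mt-Rnr2 at 15.08 against 14.40 to 14.55. In HNKO library 36 of day 12 the log2 ratio of rRNA to mRNA counts was -0.99 against 0.44 to 1.04 in the other 5.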

How the results depend on the processing

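Depth was not limiting for the 9 genes, whose lowest count in any library was 1835. All 9 kept a lower value in HNKO at days 6, 12 and 21 under every alternative run. At day 12, where 2 passed, 0 to 2 passed with 1 library left out (0 without WT library 15 or 16 or HNKO library 35, and 1 without WT library 33 or 34 or HNKO library 36), 1 with total counts, without the filter, with all 40 libraries or with the edgeR 4 computation, 4 with DESeq2 and 4 with the run of library numbers as covariate, and 0 without libraries 35 to 40. mt-Rnr2 lost its day 12 call under 6 of the 10 alternatives that leave out no single library, including the fit of the 2 day 12 groups alone, which called mt-Nd6 and mt-Nd5. At day 21, 1 or 2 passed with 1 library left out (1 without HNKO library 37) and 1 with all 40 libraries. At day 6, 0 or 1 passed with 1 library left out (1, mt-Co1, without HNKO library 6), 1, mt-Co1 again, with the covariate and 2 without libraries 35 to 40. Day effects in WT were called for 1 to 3 with 1 library left out (1 without WT library 16), 4 with the covariate and 4 without libraries 35 to 40. In HNKO they were called for 1 to 4 with 1 library left out (1 without library 37 or 40), 1 with all 40 libraries and 1 without libraries 35 to 40. No interaction was called under any. Total counts raised the median log2 fold change of all genes by 0.171 to 0.212, which at day 3 turned mt-Nd5 and mt-Rnr1 to 0.05 each. mt-Nd1 at day 3 was -0.09 with the covariate and between -0.09 and 0.21 with 1 library left out, and mt-Nd5 was between -0.24 and 0.20. The causes were not tested. No paired analysis was possible because the library numbers are unique to each liver.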
